A study of Rattus norvegicus with 6 samples.

Results

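Ccl24, the chemokine eotaxin-2, was followed here together with 9 further genes of type 2 immunity and of the eosinophil: Ccl11, Ccl17, Ccl22, Ccr3, Il4r, Il13ra1, Il5ra, Epx and Prg2. The 10 genes were picked by symbol from 18825 in the deposited table, and all 10 were found in it. They were picked with the contrast of treated against untreated wounds already known, Ccl24 for its higher level after treatment, so the differences of the 10 genes in that contrast are a description and carry no test. The RNA came from full-thickness wounds in the dorsal skin of male Sprague–Dawley rats made diabetic by a diet high in fat and sugar and then by streptozotocin, which kills pancreatic beta cells. All 6 animals or wounds sampled thus share diabetes and wounding. The control group was untreated (3 libraries), and the DST-MNs group received microneedles (3 libraries) loaded with spheroids of dental pulp stem cells, whose cells had been regulated by the polyamine spermidine and the growth factor TGF-β3. Age, the day of collection and the source of the dental pulp cells are not given in the labels, and no group given microneedles without cells was analysed here, so the parts of the device cannot be told apart. The labels call the libraries of a group biological replicates.

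In type 2 immunity, IL-4, IL-5 and IL-13 from helper T cells and innate lymphoid cells act on macrophages, fibroblasts, epithelium and eosinophils. The eotaxins CCL11, CCL24 and CCL26 draw eosinophils through the receptor CCR3, while CCL17 and CCL22 draw T cells through CCR4. Eosinophils live on IL-5, sensed by the IL-5 receptor alpha chain, and store granule proteins such as eosinophil peroxidase and major basic protein. In skin wounds, macrophages that respond to IL-4 and IL-13 are known for a part in repair.

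Library totals ran from 12545206 to 13818548 estimated counts. Marker levels, given here as sums of TPM (a level per gene length, scaled to the same total in each library), differed between the groups for some tissues and overlapped for others. Keratinocyte genes (12 of 13 listed were in the table) summed to 13.8 to 194 TPM in controls and 306 to 4540 TPM after treatment, with involucrin (Ivl) at 0 counts in every control. Of 10 keratinocyte genes tested, 0 passed the quasi-likelihood test of edgeR at an adjusted p below 0.05. At an unadjusted p below 0.05, 9 were higher, against 9.8% of all genes, and DESeq2 called 6 higher, against 4.35%. Sebaceous gland genes (10 of 10) summed to 29.6 to 48.9 and 578 to 625 TPM. Of these 10, 6 rose in edgeR, against 0.658% of all genes tested, and all 10 were higher at an unadjusted p below 0.05. Awat1, Awat2, Dgat2l6 and Fasn, enzymes of lipid synthesis, lost the call when single libraries were left out, at adjusted p of 0.0543 to 0.162, and Elovl4 and Cyp2b12 kept it. Muscle and fat genes (10 of 10) summed to 2310, 2480 and 9530 TPM in controls 3, 2 and 1 and to 8390 to 9600 TPM after treatment, with the muscle genes Ckm and Myh4 at 0 counts in control 2. Fibroblast genes (10 of 10) summed to 24200 to 32200 and 22100 to 28700 TPM, overlapping ranges as for muscle and fat, and immediate early genes (10 of 10), which respond to handling, to 926 to 1600 and 558 to 699 TPM. The part of these tissue differences in the results below was not tested. In bulk tissue, fewer cells of a type and less RNA per cell cannot be told apart.

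Ccl24 (gene ID 288593) was higher in all 3 treated wounds. It had 53, 41 and 58 counts in controls 1, 2 and 3 and 261, 288 and 289 counts in DST-MNs 1, 2 and 3. The groups were far apart and each was tight: the highest control library was 1.42 times the lowest and the highest treated library 1.26 times the lowest, in CPM, counts scaled to a common library size. In TPM the level went from 4.14 ± 0.805 in controls to 23.9 ± 1.53 after treatment (mean ± SD, n = 3). The difference was 2.39 on the log2 scale (SE 0.21), a fold of 5.23. Ccl24 thus moved from the level below which 42.1% of all genes in the table lay to one below which 72.1% lay.

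Of the 10 genes, 6 had enough reads to enter the fit across all genes (Ccl24, Ccl11, Ccl22, Ccr3, Il4r and Il13ra1). Of 14427 genes tested, 0.776% passed in either direction (adjusted p below 0.05 by the quasi-likelihood method of edgeR with the Benjamini-Hochberg correction), 0.658% as higher and 0.118% as lower. Among the 6 genes, Ccl24 passed as higher and 0 passed as lower. Nothing is read from that count, since Ccl24 was picked from this contrast. The limma-voom model, in which 0.658% of genes passed, also called Ccl24 alone, and DESeq2, which called 6.86% of genes (4.35% higher, 2.51% lower), called Ccl24 higher and Il4r lower. Without DST-MNs replicate 3 no gene of the 10 passed in edgeR, and the log2 difference of Ccl24 was then 2.31.

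**Figure D1:**
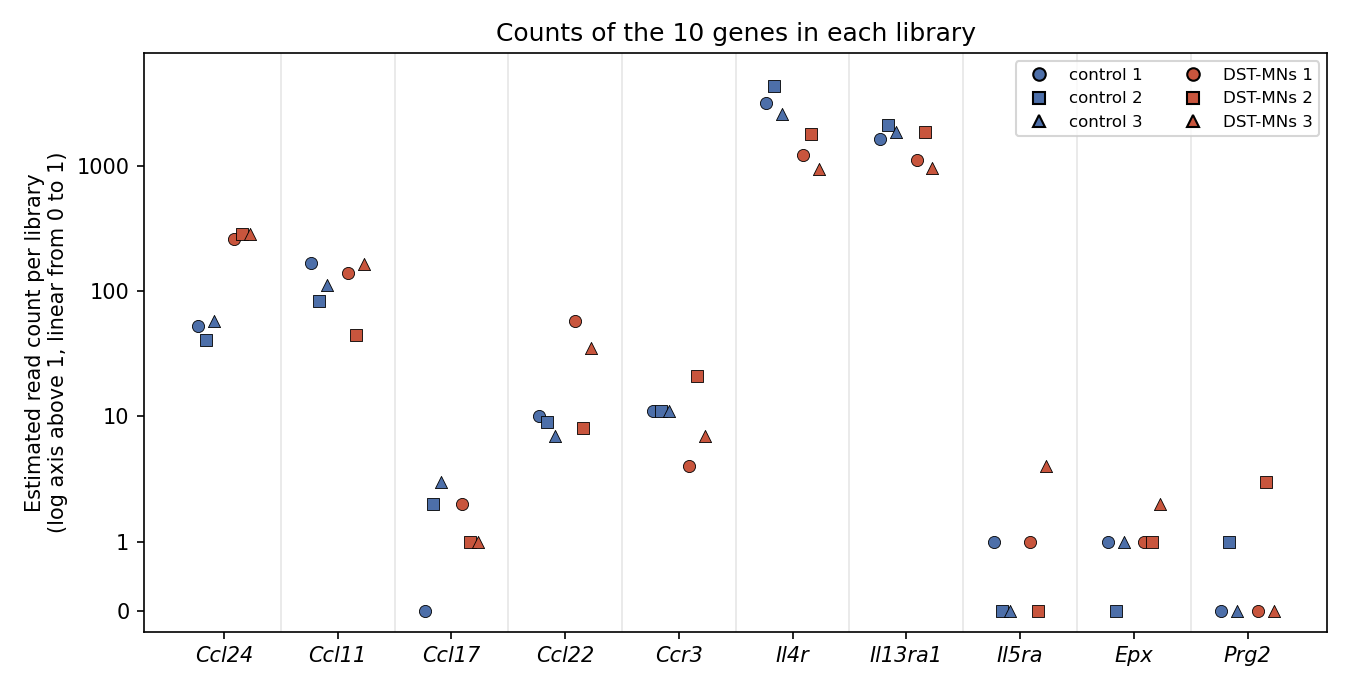
Estimated read counts of the 10 genes in each library (log axis above 1 count, linear from 0 to 1; blue, control; red, DST-MNs; the symbol gives the replicate). Ccl24 sits at 41 to 58 counts in controls and 261 to 289 after treatment, Il4r is lower in every treated library, and Il5ra, Epx and Prg2 stay at 4 counts or fewer in each library.

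Ccl11 (29397), eotaxin-1, which fibroblasts are known to make, showed no such separation of the groups. It had 169, 84 and 113 counts in controls 1, 2 and 3 and 139, 45 and 164 counts in DST-MNs 1, 2 and 3. The groups overlapped, with DST-MNs 2 the lowest library and control 1 the highest. The mean level was 16.8 ± 5.52 TPM in controls and 16.8 ± 8.89 TPM after treatment, and the log2 difference of -0.14 (SE 0.51) ran from -0.54 to 0.25 as single libraries were left out. Within a library, Ccl24 stood at 0.185, 0.288 and 0.303 times the TPM of Ccl11 in controls 1, 2 and 3. After treatment it stood at 1.10, 3.74 and 1.04 times Ccl11 in DST-MNs 1, 2 and 3. The order of the 2 eotaxins was therefore turned in all 3 treated libraries, although in DST-MNs 1 and 3 the levels were close, at 22.19 against 20.12 TPM and 24.5 against 23.52 TPM. The remaining eotaxin gene, Ccl26, had 0 counts in all 6 libraries, which allows up to 0.0776 CPM over the controls and 0.0734 CPM over the treated group (3 counts per group, for counting error only).

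In the RefSeq order of the GRCr8 assembly, Ccl26 is the next protein-coding gene to Ccl24 on chromosome 12. The next genes on either side, Rhbdd2 and Hip1, had log2 differences of -0.07 (SE 0.21) and -0.19 (SE 0.13) against the 2.39 of Ccl24. Ccl11 lies on chromosome 10, with Ccl12 and Ccl1, whose values are not described here, on one side. On its other side are the monocyte chemokine genes Ccl7 and Ccl2. Those stood at -1.89 (SE 0.46, adjusted p = 0.142) and -1.37 (SE 0.42, adjusted p = 0.194) on the log2 scale, below the difference of Ccl11, and neither passed in edgeR after correction.

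The CCR4 ligands were scarce. Ccl22 (117551), made by dendritic cells and macrophages, had 10, 9 and 7 counts in controls 1, 2 and 3 and 58, 8 and 35 counts in DST-MNs 1, 2 and 3. It was higher in DST-MNs 1 and 3, while DST-MNs 2 lay among the controls, so the groups overlapped. Its log2 difference was 1.85 (SE 0.68), and 2.32 without DST-MNs replicate 2 or 1.29 without DST-MNs replicate 1. Ccl17 (117518), which lies close to Ccl22 on chromosome 19, had 0, 2 and 3 counts in controls 1, 2 and 3 and 2, 1 and 1 counts in DST-MNs 1, 2 and 3. The ratio of its scaled counts, treated over control, was 0.757 with an exact 95% counting interval of 0.15 to 3.52, so no difference was detectable at this depth. The TPM of Ccl17, 5.01 ± 4.57 in controls and 4.50 ± 1.92 after treatment, would place it beside Ccl24 in controls. Yet 1 count of Ccl17 was worth 3.17 TPM in the deposited values and 1 count of Ccl24 was worth 0.085 TPM, so that level rested on 9 counts over the 6 libraries and its place in the order of levels is uncertain. The receptor gene of both ligands, Ccr4, had 5 counts in each group.

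Ccr3 (117027), the eotaxin receptor of eosinophils, was near the limit of detection. It had 11 counts in each of the 3 controls and 4, 21 and 7 counts in DST-MNs 1, 2 and 3. The treated libraries lay on both sides of the controls, with DST-MNs 2 the highest of all 6. Pooled counts were 33 in controls and 32 after treatment, a ratio of scaled counts of 0.917 (exact 95% counting interval 0.546 to 1.54). The log2 difference was -0.12 (SE 0.63) and ran from -1.04 without DST-MNs replicate 2 to 0.29 without DST-MNs replicate 1. In 2 of the 3 treated libraries Ccr3 counts lay below those of the controls while Ccl24 was higher. At counts this low, a difference of the receptor gene in a single wound was not detectable.

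Transcripts of eosinophil granule proteins and of the IL-5 receptor were few in both groups. Epx (303414), eosinophil peroxidase, had 1, 0 and 1 counts in controls 1, 2 and 3 and 1, 1 and 2 counts in DST-MNs 1, 2 and 3. Prg2 (58826), the major basic protein, had 1 count in all the controls, in control 2, and 3 counts in DST-MNs 2 only. Il5ra (114103), the IL-5 receptor alpha chain, had 1 count in control 1, 1 in DST-MNs 1 and 4 in DST-MNs 3. Ratios of scaled counts, treated over control, were 1.89 for Epx, 2.84 for Prg2 and 4.73 for Il5ra. Their exact 95% counting intervals were 0.271 to 20.9, 0.228 to 149 and 0.529 to 224, so a difference in either direction was not detectable at this depth. These intervals cover counting error only.

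Of 20 listed eosinophil genes, 16 were in the table and 6 had enough reads to be tested, and none of the 6 passed in edgeR or had a p below 0.05 before adjustment, while DESeq2 also called 0. The granule genes Epx, Prg2, Prg3, Ear1, Rnase2 and Rnase3 together had 10, 7 and 6 counts in controls 1, 2 and 3 and 15, 14 and 48 counts in DST-MNs 1, 2 and 3, most of them from the ribonuclease genes. Rnase3 had 4 counts over the controls and 16 after treatment and was higher in every treated library than in any control, at a ratio of scaled counts of 3.78 (exact 95% counting interval 1.22 to 15.6). Rnase2 had 42 counts in DST-MNs 3 and 4 to 6 in each other library, a ratio of 3.51 (1.92 to 6.86). These 2 genes had too few reads to be tested and were chosen for naming after their values were seen. Their intervals cover counting error only and leave out the spread between libraries. Of the 52 treated counts of Rnase2, 42 came from DST-MNs 3. The summed level of the list was 81.5 to 125 TPM in controls and 66.6 to 129 TPM after treatment. Of that sum 70.1% to 95.8% came from Csf2rb, Adgre1 and Siglec5, which other myeloid cells express too. The smallest p of the list's non-members was that of the shared beta chain Csf2rb, at a log2 difference of -0.58 (SE 0.28, adjusted p = 0.355 in edgeR), followed by Siglec5, an inhibitory lectin of myeloid cells, at -0.93 (SE 0.76, adjusted p = 0.579). The lineage factor Gata1 had 6 counts over the controls and 7 after treatment.

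The receptor chains for IL-4 and IL-13 were the most abundant of the 10 genes. Il4r (25084), the IL-4 receptor alpha chain, had 3206, 4379 and 2583 counts in controls 1, 2 and 3 and 1229, 1809 and 944 counts in DST-MNs 1, 2 and 3. It was lower in every treated library than in any control. In TPM it stood at 110 ± 27.7 in controls and 45.6 ± 16.5 after treatment, a log2 difference of -1.44 (SE 0.29), or 2.71-fold lower. Groups did not overlap, in one direction or the other, for 22.9% of all genes tested, and among the 6 tested of the 10 genes this held for Ccl24 and Il4r. With single libraries left out the difference ran from -1.72 to -1.21. Il13ra1 (252963), which pairs with the IL-4 receptor alpha chain to sense IL-4 and IL-13, had 1647, 2124 and 1855 counts in controls 1, 2 and 3. It had 1122, 1861 and 971 counts in DST-MNs 1, 2 and 3, so that DST-MNs 2 lay among the controls. Its log2 difference was -0.59 (SE 0.25), and -0.91 without DST-MNs replicate 2. In each of the 6 libraries its deposited count was not a whole number, which can come from reads divided with other genes, so its level is less certain.

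Both chains were highest in library 2 of their group, yet their ratio differed by group. Il4r stood at 2.24, 2.35 and 1.59 times the TPM of Il13ra1 in controls 1, 2 and 3, and at 1.21, 1.14 and 1.12 times in DST-MNs 1, 2 and 3. On chromosome 1 the next protein-coding genes to Il4r are Nsmce1 (log2 difference 0.05, SE 0.17) and the IL-21 receptor gene Il21r (-0.70, SE 0.33, adjusted p = 0.344 in edgeR). Immediate early genes were lower in the same libraries, by a median of -1.12 on the log2 scale over 10 genes. Of these, 0 passed edgeR's test. Before adjustment 9 were lower at p below 0.05, against 6.88% of all genes, and DESeq2 called 8 lower, against 2.51%. Their part in the difference of Il4r was not tested.

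**Figure D2:**
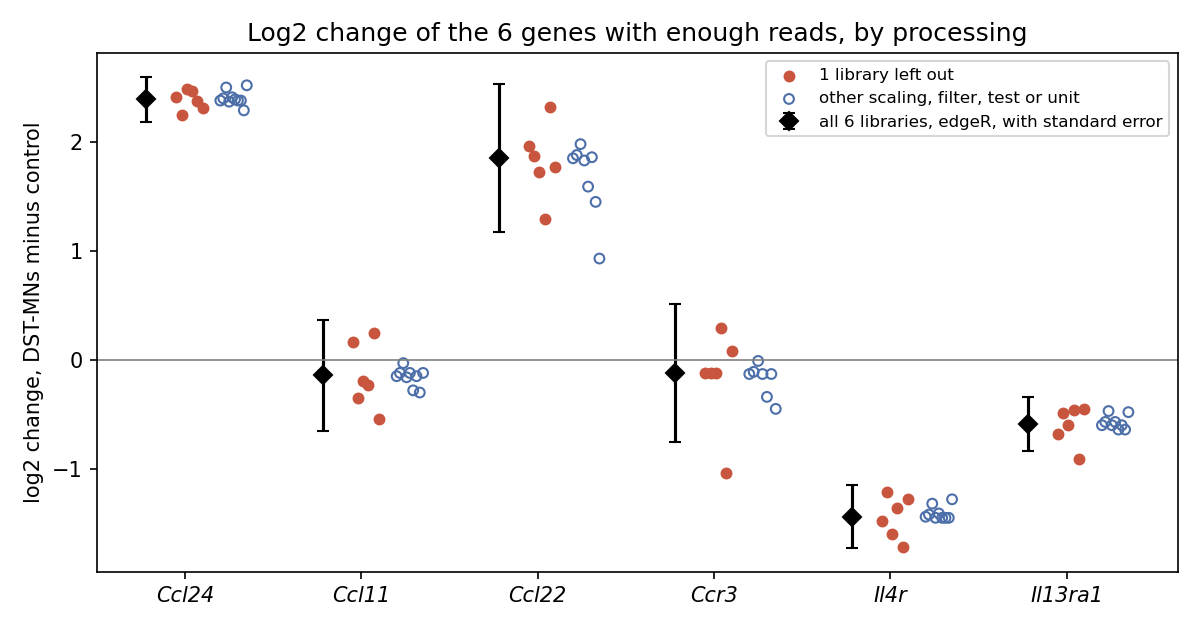
Log2 difference, DST-MNs minus control, of the 6 genes with enough reads: black diamonds with standard error from all 6 libraries, red points with 1 library left out, open blue circles with other scaling, filter, test or unit. Ccl24 stays between 2.25 and 2.52 and Il4r between -1.72 and -1.21, while Ccl11 and Ccr3 lie on both sides of 0.

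By level per length, the order in controls was Il4r, Il13ra1 (53.5 ± 7.65 TPM), Ccl11, Ccl24, Ccl22 (0.567 ± 0.0777) and Ccr3 (0.333 ± 0.0153), with Ccl17 left out. Prg2, Epx and Il5ra followed below 0.2 TPM in every control, and their order cannot be told apart. After treatment Ccl24 stood next behind Il4r and Il13ra1 (39.5 ± 14.7 TPM). Il4r lay above Il13ra1 in each of the 6 libraries, though the ranges of the pair overlapped after treatment. In the treated group the TPM ranges of Il13ra1 and Ccl24 did not overlap, and those of Ccl24 and Ccl11 did. Ccl22 (2.31 ± 1.71) and Ccr3 (0.343 ± 0.295) overlapped after treatment and not in controls.

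The wider pathway was described with 4 lists: chemokines with their receptors, type 2 cytokines with receptors and the JAK and STAT relay, targets of IL-4 and IL-13, and eosinophil genes. Without the 10 genes they held 61 genes in the table, of which 42 were tested. None of them passed in edgeR. Before adjustment, 5 were higher and 8 lower at p below 0.05, against 9.8% and 6.88% of all genes. With DESeq2, 2 passed as higher and 5 as lower, against 4.35% and 2.51% of all genes, and limma-voom passed 0. The median log2 difference of the 42 was -0.06, beside 0.0 over all genes tested.

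Of the cytokines, Il5 had 0 counts in all 6 libraries, and Il4 and Il13 were not analysed here. The alarmin Il33, released by damaged cells, was abundant in both groups, at 194 ± 48.7 TPM in controls and 164 ± 38.4 TPM after treatment (log2 difference -0.39, SE 0.28). Tslp, an epithelial alarmin, stood at 6.40 ± 0.571 and 5.45 ± 2.00 TPM, also -0.39 (SE 0.32). The groups overlapped for both. Il2rg, the gamma chain that pairs with the IL-4 receptor alpha chain on blood cells, and Stat6, the transcription factor downstream, had log2 differences of 0.08 (SE 0.09) and -0.08 (SE 0.13). That of Stat6 was 0.04 with total counts as scaling and 0.06 on log2(TPM + 1). In this list the 2 smallest p among non-members belonged to Gata3 and Jak2. Gata3, a factor of type 2 lymphocytes that skin epithelium also expresses, had a log2 difference of 3.81 (SE 0.97, adjusted p = 0.15 in edgeR), with 615, 59 and 116 counts in DST-MNs 1, 2 and 3 against 7 to 27 in controls. The order of its treated libraries was that of the keratinocyte sums, and the part of epithelium was not tested. The kinase gene Jak2 stood at -0.86 (SE 0.25, adjusted p = 0.172).

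Targets of IL-4 and IL-13 lay on both sides of 0. Of 25 listed, 22 were in the table and 15 were tested, Ccl24, Ccl22 and Ccl11 among them. Of the 15, 9 had negative differences, as had 7141 of the 14427 genes tested in all. Ccl24, picked from this contrast, alone passed edgeR's test, in which 0.658% of all genes passed as higher. At an unadjusted p below 0.05, 4 were higher and 5 lower, against 9.8% and 6.88% of all genes. Without the 10 genes, 12 targets were tested, of which 2 were higher and 5 lower at that p. Arg1, arginase 1 of repair-type macrophages, went from 1193, 1056 and 1525 counts in controls to 358, 493 and 569 in DST-MNs 1, 2 and 3 (log2 difference -1.47, SE 0.25, adjusted p = 0.063 in edgeR). The lectin receptors Clec10a and Mrc1 stood at -0.80 (SE 0.14, adjusted p = 0.0723) and -0.83 (SE 0.19, adjusted p = 0.131). For these 3 genes every treated library lay below every control, which held for 1448 of the 14427 genes tested in all. Of the 12 targets tested without the 10 genes, only these 3 lay so, and 1 lay above every control. Other targets lay on the side of Ccl24, and 3 are named here after their values were seen. Cdh1, the epithelial adhesion protein E-cadherin, had 58, 45 and 53 counts in controls 1, 2 and 3 and 1413, 225 and 404 counts in DST-MNs 1, 2 and 3 (log2 difference 3.59, SE 0.67, adjusted p = 0.0831 in edgeR). It was higher in every treated library, in the order of the keratinocyte sums, whose part was not tested. Irf4, a transcription factor of lymphoid and myeloid cells, stood at 1.37 (SE 0.55, adjusted p = 0.283) with overlapping groups. Pdcd1lg2, the PD-1 ligand PD-L2, had 17 counts over the controls and 52 after treatment, was higher in every treated library and had too few reads to be tested. Arg1 and Ccl24 are both known as genes induced by IL-4, and in these libraries their values stood on opposite sides.

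**Figure D3:**
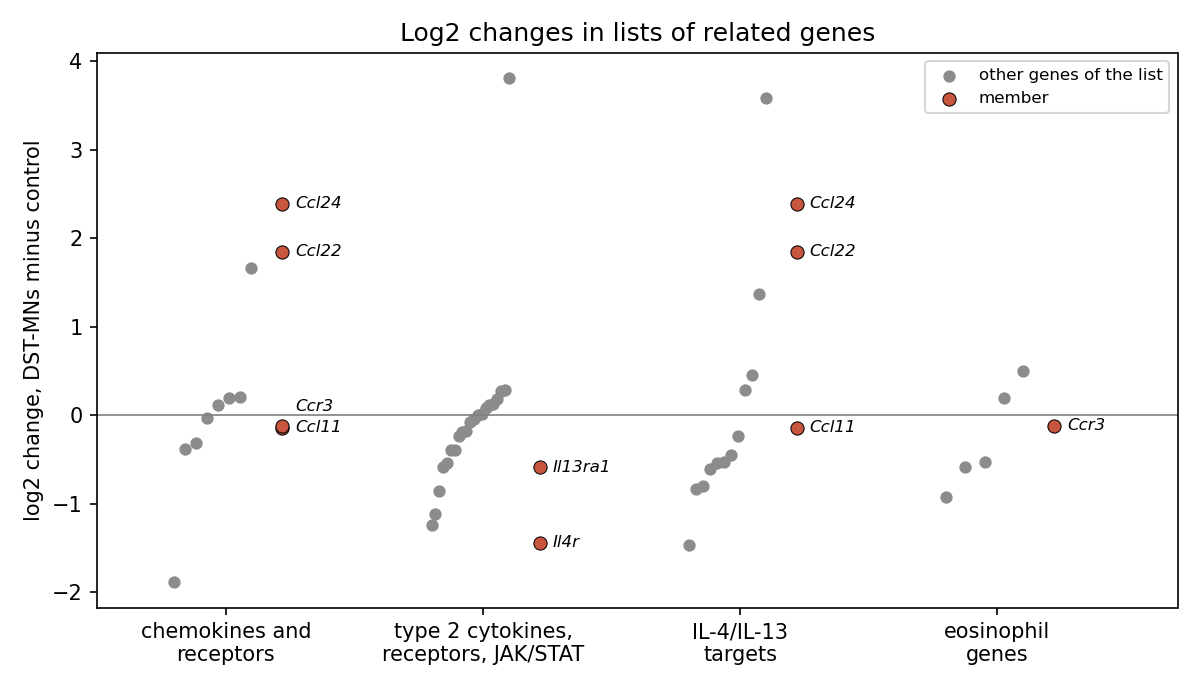
Log2 differences, DST-MNs minus control, of tested genes in 4 lists (grey, other genes in rising order; red, genes among the 10; a gene may be in several lists). Ccl24 is the highest and Ccl7 the lowest of the chemokine list. Of 15 tested targets of IL-4 and IL-13, 9 lie below 0, as do 7141 of the 14427 genes tested in all.

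The chemokine list had 17 genes in the table and 12 tested. Its non-members with the smallest p were Ccl7, a ligand of several receptors including CCR3, and Ccl27, a CCR10 ligand of keratinocytes, at 1.66 (SE 0.44, adjusted p = 0.157 in edgeR). Ccl7 had 1630, 3898 and 1600 counts in controls 1, 2 and 3 and 483, 1028 and 521 counts after treatment. Ccl7 and Ccl24, both ligands of CCR3, thus lay on opposite sides while Ccl11 stood between them. Ccl5 of the same list stood at 0.19 (SE 0.35), with overlapping groups. In TPM, Ccl7 was the more abundant in both groups, at 435 ± 239 and 132 ± 62.5 against 4.14 and 23.9 for Ccl24.

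Cells that could make Ccl24 were described by markers. General macrophage genes (16 of 16 in the table) summed to 5090 to 6680 TPM in controls and 5060 to 8130 TPM after treatment, overlapping ranges. Of the 16, 0 passed edgeR's test and DESeq2 called 0. At an unadjusted p below 0.05, 1 was lower, against 6.88% of all genes. Their 2 smallest p were those of Cd14, a co-receptor for bacterial lipid, and the complement gene C1qb, at -0.46 (SE 0.15) and -0.41 (SE 0.20) on the log2 scale. Of that sum 46.1% to 62.4% came from lysozyme (Lyz2), and without it the ranges also overlapped (2740 to 3360 and 2340 to 3570 TPM). The part of macrophage number in the difference of Ccl24 was not tested. Genes of resident-type macrophages (16 of 16) summed to 2720 to 3290 and 2170 to 3770 TPM. Of 13 tested, 10 had negative differences, as had 7141 of the 14427 genes tested in all. At an unadjusted p below 0.05, 3 were lower and 0 higher, against 6.88% and 9.8% of all genes. DESeq2 called 2 lower, against 2.51%. Cd163, the haemoglobin scavenger receptor, fell (log2 change -1.75, SE 0.16, adjusted p = 0.0115 in edgeR). It alone of the 13 passed that test, in which 0.118% of all genes passed as lower. That call was lost without DST-MNs replicate 1 (adjusted p = 0.0728) and without DST-MNs replicate 3 (adjusted p = 0.0823).

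Dendritic and Langerhans cell genes (16 of 16) summed to 820 to 1170 TPM in controls and 1490 to 2150 TPM after treatment, ranges that do not overlap. Of that sum 70.9% to 86.2% came from Cd74, the invariant chain of antigen presentation, which macrophages and B cells express too. Without it, a step added after seeing the data, the sums were 193 to 264 and 214 to 307 TPM and overlapped. Of 15 tested, 0 passed edgeR's test. Before adjustment 6 were higher and 1 lower at p below 0.05, against 9.8% and 6.88% of all genes. In DESeq2, 3 passed as higher and 1 as lower, against 4.35% and 2.51%. Xcr1 of cross-presenting dendritic cells and Cd207 of Langerhans cells had the smallest p, at 2.53 (SE 0.41, adjusted p = 0.0559) and 3.46 (SE 0.70, adjusted p = 0.102) in edgeR. Ccl22, which dendritic cells make, was low in DST-MNs 2, where Xcr1 had 91 counts, its highest. Cd207 had 141, 31 and 46 counts in DST-MNs 1, 2 and 3, so it was lowest of the treated libraries there, as Ccl22 was. The order of Cd207 and of Ccl22 over the treated libraries was also that of the keratinocyte sums (4540, 306 and 1410 TPM in DST-MNs 1, 2 and 3). The part of dendritic cells or of epithelium in the difference of Ccl22 was not tested. T cell and type 2 lymphoid genes (18 of 18) summed to 151 to 230 and 174 to 238 TPM, with 0 of 16 tested past edgeR's test. Before adjustment 1 was higher at p below 0.05, against 9.8% of all genes, and DESeq2 called 1 higher, against 4.35%. The costimulator Icos stood at -0.60 (SE 0.35). Mast cell and basophil genes (15 of 17) summed to 102 to 183 and 74.1 to 162 TPM. Of 10 tested, 0 passed edgeR's test or DESeq2 and 3 had an unadjusted p below 0.05, against 16.7% of all genes in either direction. Hpgds, a prostaglandin D2 synthase, stood at 0.84 (SE 0.26) and Hdc, which makes histamine, at -0.92 (SE 0.33).

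**Figure D4:**
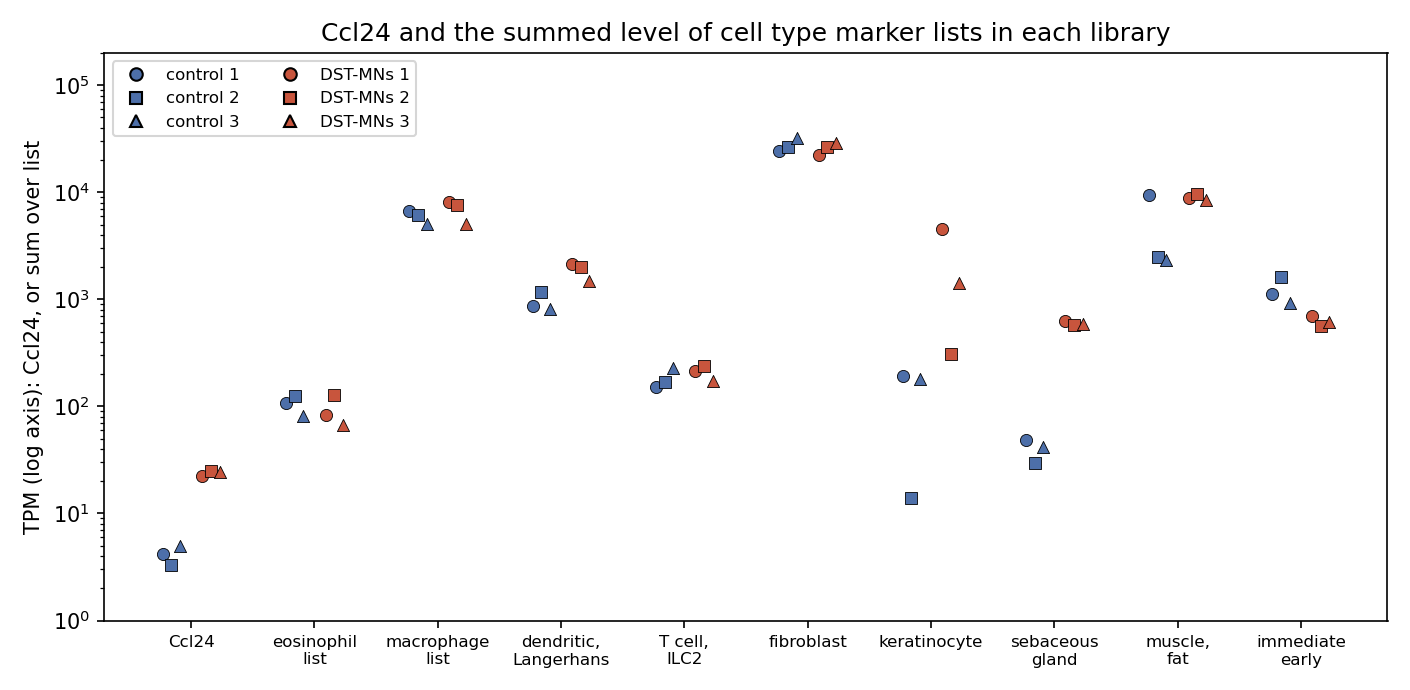
TPM of Ccl24 and summed TPM of marker lists in each library (log axis; blue, control; red, DST-MNs; the symbol gives the replicate). Ccl24, the sebaceous, keratinocyte and dendritic sums are higher in every treated library than in any control, while the macrophage, eosinophil, T cell and fibroblast sums overlap. The dendritic sums overlap too without Cd74, at 193 to 264 and 214 to 307 TPM.

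Across the 6 libraries, the genes with the pattern most like that of Ccl24 were sought among 12509 tested genes with a mean log2 CPM of at least 1. By Pearson's r of log2 CPM over 6 libraries these were Cyp2b12 (r = 0.999), Kmt5b (0.998), Acsm1 (0.998), Lcor (0.997) and Ivd (0.997). Cyp2b12 is a cytochrome P450 of sebaceous cells, Acsm1 an acyl-CoA synthetase and Ivd an enzyme of leucine breakdown, while Kmt5b and Lcor encode nuclear regulators. They share the gap between the groups rather than its size: log2 differences were 9.05, 6.75 and 3.19 for Cyp2b12, Acsm1 and Ivd and 0.29 and 0.24 for Kmt5b and Lcor. An r above 0.95 was reached by 121 genes (0.967%), and the points share the same 2 groups and libraries, so r here mostly restates the group gap. By deviations from the group means, the closest genes were Hbs1l (r = 0.997), Pgghg (0.995), Pomk (0.99), Zfp267 (0.989) and Zfp426 (0.987), a different set. These are the highest of 12509 values over only 6 libraries, where a high r can arise without any link to Ccl24. No background share was taken for them, so nothing is read from their size. Among the other genes of the 10, r with Ccl24 was -0.93 for Il4r, -0.734 for Il13ra1, 0.618 for Ccl22, -0.229 for Ccr3 and -0.179 for Ccl11.

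Sequences before the gene starts were read for the letters that STAT6, the factor activated through the IL-4 receptor, and other STAT factors are known to bind. They are shown because Ccl24, Ccl11, Ccl17 and Ccl22 are among the listed targets of IL-4 and IL-13. The RefSeq promoter table (GRCr8) held 8 of the 10 genes, without Ccl11 and Prg2. In the 250 bases before the start, the letters TTC and GAA with 4 bases between them, the spacing known for STAT6, were found in 6.25% of 33469 promoters, and with 3 bases between them (TTCNNNGAA) in 7.67%. Both read the same on either strand. Only the first listed promoter of each of the 8 genes was read, and 3 of the 8 held one or both. The shares count every promoter and were taken for each spacing alone. The stretches are printed 5′ to 3′ along the gene with the match in capitals. The stretch of Ccl24 is at chr12:26737269-26737327 on the plus strand, and its match lies 121 to 129 bases before the start. Those of Ccl17 are on the minus strand at chr19:10209929-10209988 and chr19:10209896-10209933, and that of Epx, also on the minus strand, is at chr10:73175181-73175215 and ends at the start.
Ccl24, spacing 3: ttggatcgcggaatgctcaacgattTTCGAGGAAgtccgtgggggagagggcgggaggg
Ccl17, spacing 4: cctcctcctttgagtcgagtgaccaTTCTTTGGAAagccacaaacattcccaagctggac
Ccl17, spacing 3: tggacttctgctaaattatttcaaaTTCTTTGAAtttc
Epx, spacing 4: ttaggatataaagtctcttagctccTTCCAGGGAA
The matches stood before a gene that was higher after treatment (Ccl24) and before genes with 9 counts or fewer in all 6 libraries together (Ccl17 and Epx). Ccl22, Ccr3, Il4r, Il13ra1 and Il5ra did not hold these letters in this window of the promoter read. A match is a description of letters and does not show binding.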

How the data were processed

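Messenger RNA libraries from 6 wound samples (3 control, 3 DST-MNs) were read from both ends on the DNBSEQ-T7 platform, per the labels' protocols. Groups came from the sample titles and columns were matched by library name. The authors deposited, per the file headers, estimated counts per gene without scaling (90.5% to 91.4% of them whole), FPKM, TPM and normalised counts. The deposited FPKM and the deposited normalised counts, a signal made by dividing each library's counts by 1 factor, were not tested. The deposited TPM were used for levels. Reads were handled against mRatBN7.2, per the submitters' processing notes. Which aligner and counter were used, and how reads of similar genes or opposite strands were treated, is not given in the sources used here.

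Counts were rounded, filtered with filterByExpr (minimum count 10; 14427 genes), scaled with TMM and tested with edgeR 4.0.16 (glmQLFit, glmQLFTest; Benjamini-Hochberg threshold 0.05; R 4.3.3). The SE is the log2 change divided by the square root of F. Counting intervals are exact 95% intervals of the pooled counts. Alternatives tried were scaling by upper quartiles, by plain totals or by the size factors of DESeq2 1.42.0, no count filter, 10 counts required in each library, DESeq2's Wald test, voom of limma 3.58.1, the replicate number as a block, limma trend on log2(TPM + 1) for a mean TPM of at least 1, log2(TPM + 0.1) for Ccl24, and leaving out each library. The 10 genes, the 14 gene lists and the rules were chosen with earlier results of these data known. Of 231 list entries, 12 had no match. The rule named all 10 genes, list genes past the threshold, the 2 smallest p of each list, 13 fixed genes and the 5 genes most like Ccl24. Some names it gave outside the pathway are not described. If libraries of a group were not from separate animals, p-values do not measure the spread between animals.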

Additional observations from a re-analysis of the deposited data

How the results depend on the processing

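The log2 difference of Ccl24 kept its direction under all 16 alternatives, from 2.25 to 2.52, and from 2.25 to 2.49 with 1 library left out. Of the 10 genes, 1 passed by default; 2 passed with DESeq2's Wald test and with the replicate block (Ccl24 and Il4r both times), and 0 to 1 with 1 library left out, 0 without DST-MNs replicate 3. Of the related genes in the 4 pathway lists, 0 passed by default, 7 with DESeq2, 2 with the replicate block (Ccl7 and Arg1, lower) and 0 to 2 with 1 library left out, the 2 (Clec10a, lower, and Ccl27, higher) without control replicate 1. Over all genes 112 passed, 1070 with DESeq2, 38 with at least 10 counts in every library and 14 to 402 with 1 library left out, 402 without control replicate 1. The cause was not tested. Among the 10 genes, sign changed for Ccl11 (0.16 when control 1 was left out, 0.25 when DST-MNs 2 was) and Ccr3 (0.29 when DST-MNs 1 was left out, 0.08 when DST-MNs 3 was). The log2 ratio of the mean dendritic sums was 0.99, and 0.20 without Cd74, an alternative chosen after seeing the data. Sign also changed for Stat6 (0.04 with total counts, 0.06 on log2(TPM + 1)) and for the fat gene Cidec, which ran from -0.68 to 1.95 with 1 library left out, lowest without DST-MNs replicate 1. The replicate numbers were not shown to pair libraries: deviations of same-numbered libraries correlated at -0.0245, 0.101 and 0.109. At totals of 12545206 to 13818548 counts, Epx, Prg2, Il5ra and Ccl17 had too few reads for any difference to be seen.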
